A study of Mus musculus with 32 samples.

Results

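Kidney RNA from 4 male mice at Day 3 after cisplatin was compared with that from 4 male mice at Day 0, which makes 8 of the 32 libraries of the series. The members were the m03 and m00 columns of the gene count table, numbered 1 to 4 on each day. All mice were wild-type C57BL/6, an inbred laboratory strain, aged 6–8 weeks, and each library came from the whole kidney of 1 mouse. The Day 3 mice had received a single intraperitoneal injection of 20 mg/kg cisplatin, a platinum drug that can cause acute kidney injury (AKI). The Day 0 mice were healthy animals for which the labels list no treatment, so the drug, the injection and the days after it cannot be told apart. The comparison asks which genes and pathways differed in the male kidney at Day 3.

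Cisplatin enters proximal tubule cells through organic cation transporters and forms crosslinks in DNA, which can activate the tumour suppressor p53 and its targets for cell cycle arrest, DNA repair and cell death. Injured tubule cells are known to secrete neutrophil attractants and to make the iron-binding protein NGAL, the product of Lcn2, while the proximal tubule normally depends on fatty acid oxidation for energy. Immediate early genes such as Fos and Egr1 encode transcription factors that cells induce within minutes of a stimulus. In RNA from a whole organ, fewer cells of a type and less RNA per cell cannot be told apart.

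Between 16502107 and 30740491 reads were counted on genes in the Day 0 libraries, and between 18822537 and 20946652 in the Day 3 libraries. All 12 kidney segment markers were read in each library, as the tissue label requires. The 4 Day 3 libraries were alike, with a median SD of 0.128 in log2 CPM (counts scaled to a library of fixed size) over all genes tested, while the Day 0 libraries had a median SD of 0.398, which was 0.214 without mouse 3 and 0.097 without mice 3 and 4. Day 0 mouse 3 had reads on 17985 genes, against 21188 to 21939 in the other Day 0 libraries and 23997 to 24365 at Day 3, and it stood apart on the first principal component. Day 0 mouse 4 had 24% of its counts on transcripts of the mitochondrial genome, against 6.46 to 12.6% elsewhere. It also had 242 reads on Xist, a transcript of the inactive X chromosome of females, against 0 to 50 in the other male libraries, although reads on genes of the Y chromosome were found in all 8. Where leaving out 1 of these libraries ended the call of a named DEG or moved its fold change by over 1.5 times, this is given beside the result.

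Of the 15908 genes with enough counts to test, 591 were differentially expressed genes (DEGs), which had a Benjamini-Hochberg adjusted p under 0.05 by the edgeR quasi-likelihood test and an absolute log2 fold change over 1.5. Between Day 0 and Day 3, 298 DEGs were upregulated and 293 downregulated. These are 3.72% of the genes tested in either direction, 1.87% upwards and 1.84% downwards. At an adjusted p under 0.05 alone, 1814 genes were higher at Day 3 (11.4%) and 2087 lower (13.1%). The 4 Day 3 values lay above all 4 Day 0 values for 3326 genes (20.9%) and below them for 2811 genes (17.7%). These shares are the background for each count below from the fit with all mice. With Day 0 mice left out, more of all genes tested had an adjusted p under 0.05. Without Day 0 mouse 3, 19.5% were higher and 19.1% lower. The shares were 16.1% and 18.6% without Day 0 mouse 4, and 25.2% and 25% without both. List counts from those fits stand beside these larger shares. The DESeq2 Wald test called 682 upregulated (3.37%) and 494 downregulated DEGs (2.44%). The upregulated DEGs took 0.145 to 0.369% of all counts at Day 0 and 1.02 to 2.03% at Day 3, and the downregulated ones 2.12 to 4.72% and 0.908 to 1.04%.

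The count and balance of DEGs moved with single libraries. Without Day 0 mouse 3 there were 432 upregulated and 184 downregulated DEGs, without Day 0 mouse 4 there were 518 and 449, and without both there were 677 and 155. All 591 DEGs kept their direction without both mice, 547 of them kept an adjusted p under 0.05 and 340 remained DEGs. Leaving out 1 of the Day 3 mice left between 104 and 181 upregulated and between 52 and 98 downregulated DEGs. A DEG is therefore described as stable below if it was called with each of the 8 mice left out in turn, and otherwise the mice whose removal ended the call are named.

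The p53 targets were the list with the most upregulated DEGs. Of its 36 members tested, 11 were upregulated and none downregulated, 18 had an adjusted p under 0.05 upwards, and 20 had higher values in all 4 Day 3 mice than in any Day 0 mouse. Their median log2 fold change was 0.93, against 0.02 over all genes tested. Cdkn1a encodes the cell cycle inhibitor p21 and lies at chr17:29090976-29100727 (GRCm38, plus strand). It was read at 9.31, 11.9, 10.2 and 14.6 CPM in the 4 Day 0 mice and at 164, 62.0, 102 and 62.1 CPM in the 4 Day 3 mice. The groups were far apart, with means of 11.5 ± 2.34 and 97.8 ± 48.4 CPM (SD, n = 4 each) and a log2 fold change of 3.09 (SE 0.348, adjusted p = 0.00352).

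Eda2r, a member of the tumour necrosis factor receptor family on chromosome X, was at 0.669, 0.394, 0 and 0.592 CPM at Day 0 and at 13, 4.99, 9.01 and 7.21 CPM at Day 3. All 4 Day 3 values were above the highest Day 0 value, for a log2 fold change of 4.42 (SE 0.711, adjusted p = 0.00822). Ddias, a suppressor of apoptosis after DNA damage, rose by 3.48 (SE 0.437) on the log2 scale, from 0.378 ± 0.207 to 4.32 ± 1.51 CPM. Psrc1, a microtubule-binding protein, rose by 3.28 (SE 0.386), from 0.804 ± 0.265 to 7.85 ± 3.24 CPM. The growth inhibitor Btg2 was at 15.7, 18.6, 9.58 and 32.0 CPM at Day 0 and at 160, 103, 102 and 68.6 CPM at Day 3, a log2 fold change of 2.52 (SE 0.390, adjusted p = 0.00775). Gtse1, which acts in the G2 phase, rose by 2.11 (SE 0.367). Mouse 1 was the highest of the Day 3 mice for Cdkn1a and for each of these 5 genes.

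The abundant member Ccng1, which encodes cyclin G1, varied little within either group. It was at 169, 208, 206 and 181 CPM at Day 0 and at 719, 577, 669 and 657 CPM at Day 3, a log2 fold change of 1.78 (SE 0.138, adjusted p = 0.000855). The polo-like kinase gene Plk2 rose by 1.90 (SE 0.166) and Trp53inp1, a stress protein of the p53 pathway, by 1.71 (SE 0.172). These 9 DEGs, namely Cdkn1a, Eda2r, Ddias, Psrc1, Btg2, Gtse1, Ccng1, Plk2 and Trp53inp1, were stable. The nuclease gene Aen (log2 fold change 1.61) was no longer called without Day 0 mouse 3, where it was 1.32, or without any 1 of the Day 3 mice, where its adjusted p reached 0.0658. The translesion polymerase gene Polk (1.51) was no longer called without Day 0 mouse 3, Day 0 mouse 4, Day 3 mouse 1 or Day 3 mouse 3, where its log2 fold change was as low as 1.30.

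Members that did not become DEGs were of both kinds, moderately raised and level. Mdm2, the ubiquitin ligase that degrades p53, was at 34 ± 3.86 CPM at Day 0 and 86.9 ± 18.0 CPM at Day 3, a log2 fold change of 1.35 (adjusted p = 0.00453). Zmat3, an RNA-binding target of p53, went from 28.1 ± 3.44 to 62.6 ± 4.49 CPM, a log2 fold change of 1.16. Trp53 itself was at 27.3 ± 5.94 and 26.6 ± 2.37 CPM, a log2 fold change of -0.04 (adjusted p = 0.881). The cell death genes of the list were divided. The death receptor gene Tnfrsf10b (log2 fold change 1.09, adjusted p = 0.0297), the apoptosome gene Apaf1 (0.97, adjusted p = 0.0248) and Pmaip1 (0.84, adjusted p = 0.0191) were higher and did not overlap between the days, although the adjusted p of Tnfrsf10b and Apaf1 reached 0.0899 and 0.0821 under an alternative. Bax (-0.46, adjusted p = 0.223) and Bbc3 (0.49, adjusted p = 0.196) overlapped. The repair nuclease gene Ercc5 (0.89) and the glutamate enzyme gene Dglucy (1.03) complete the 7 members higher at an adjusted p under 0.05 without being DEGs. Under an alternative the adjusted p reached 0.0588 for Ercc5, 0.117 for Dglucy and 0.051 for Mdm2. The 18 members that did not pass, Trp53, Bax and Bbc3 among them, lay between -0.80 and 1.45. In a separate list of 32 tested genes of apoptosis, necroptosis and pyroptosis there was no DEG in either direction, with 5 members higher and 3 lower at an adjusted p under 0.05.

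**Figure D1:**
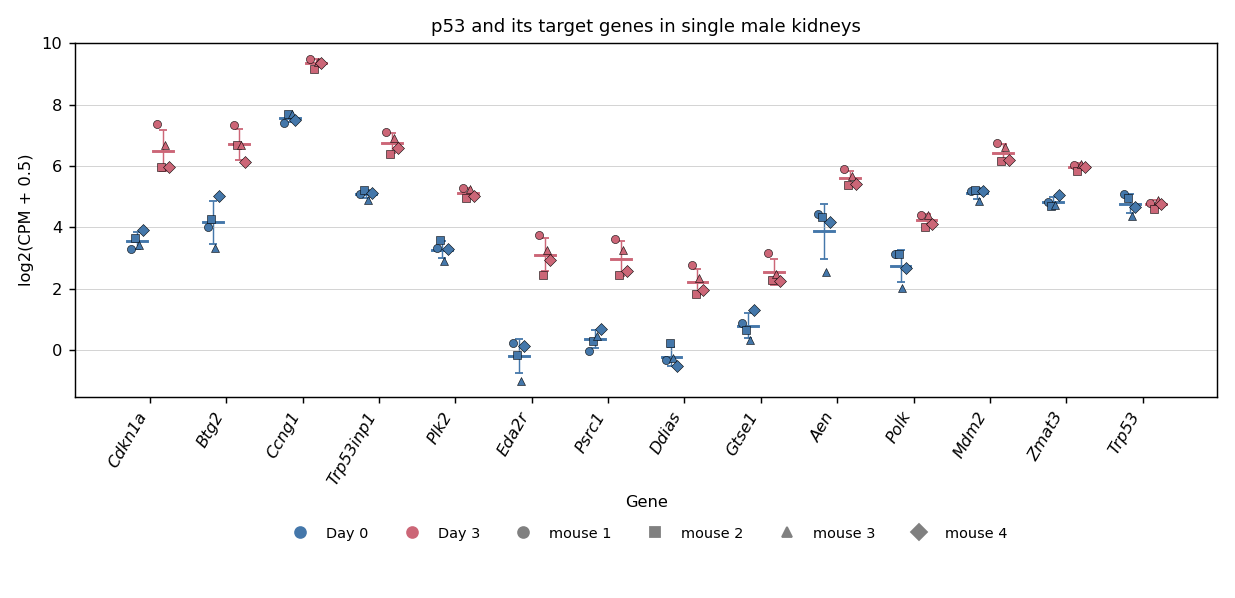
The vertical axis is log2(CPM + 0.5) of Trp53 and its target genes in the 4 Day 0 (blue) and 4 Day 3 (red) male kidneys, with 1 point a mouse, a line for the mean and a bar for its SD. Cdkn1a lies between 9.31 and 14.6 CPM at Day 0 and between 62.0 and 164 CPM at Day 3, while the 2 groups overlap for Trp53.

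Promoter sequences of RefSeq on GRCm38.p6, covering 250 bases before and 50 after each annotated start, were searched on both strands for the p53 half-site, a motif of 10 letters bound by p53 in pairs. It was present in the promoters of 11 of the 29 tested p53 targets that had an entry (37.9%), among them 5 of 10 DEGs (Aen, Ccng1, Cdkn1a, Gtse1 and Polk), in 8.4% of those of the genes tested and in 9.55% of the promoters of all 27025 genes in the table. The share was 9.68% for all upregulated DEGs and 9.24% for all downregulated DEGs, both near that of all genes. The stretches below show the half-sites, in capitals, of the DEGs described above, each as 30 bases read 5′ to 3′ along the gene. In Cdkn1a they lie at chr17:29090896-29090925 and chr17:29090918-29090947, in Ccng1 at chr11:40755452-40755481, in Aen at chr7:78895927-78895956, in Gtse1 at chr15:85859945-85859974 and in Polk at chr13:96519399-96519428.
Cdkn1a, first: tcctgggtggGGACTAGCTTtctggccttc
Cdkn1a, second: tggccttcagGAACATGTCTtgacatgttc
Ccng1: agacctgcccGGGCAAGCCTtggcactgaa
Aen: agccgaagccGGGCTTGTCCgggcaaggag
Gtse1: gagcaagttgGGGCTTGCCTctgacttgcc
Polk: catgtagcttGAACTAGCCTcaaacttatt
A match describes these letters only, and binding of p53 was not measured.

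Of 34 tested genes of the DNA damage response and crosslink repair, Rev1 was upregulated and Chek1 downregulated, which is 2.94% in each direction. At an adjusted p under 0.05, 7 were higher and 2 lower, and without Day 0 mouse 3 11 were higher. Rev1, a polymerase that bypasses DNA lesions, was at 3.90 ± 2.42 CPM at Day 0 and 13.9 ± 1.23 CPM at Day 3, a log2 fold change of 1.84 (SE 0.439, adjusted p = 0.0228). The checkpoint kinase gene Chek1 was at 1.55 ± 0.598 and 0.447 ± 0.209 CPM (log2 fold change -1.79, SE 0.494, adjusted p = 0.0338). Neither call held without Day 0 mouse 2 or without any 1 of the Day 3 mice, where the adjusted p rose to 0.0700 and 0.0937. Atr, the kinase that senses stalled replication, rose by 0.96 (SE 0.132) on the log2 scale. Of 33 tested cell cycle and replication genes, only Aurkb, a mitotic kinase, was a DEG (log2 fold change -1.52, adjusted p = 0.0343), and it was lost without Day 0 mouse 2 or any 1 of the Day 3 mice, with an adjusted p of up to 0.101.

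The immediate early genes had the largest share of upregulated DEGs among the lists of 10 or more genes. Of 21 tested, 9 were upregulated and none downregulated, and their median log2 fold change was 1.48. Fos was at 1.89, 2.92, 7.06 and 8.15 CPM at Day 0 and at 56.0, 43.1, 38 and 29.8 CPM at Day 3. The lowest Day 3 value was above the highest Day 0 value, and the log2 fold change was 3.05 (SE 0.450, adjusted p = 0.00653). Fosb, another partner in AP-1 dimers, was at 0.426, 0.169, 0 and 1.25 CPM at Day 0 and at 5.26, 6.08, 5.69 and 6.99 CPM at Day 3, a log2 fold change of 3.77 (SE 0.809, adjusted p = 0.0170). Day 0 varied more than Day 3 on a log scale for this gene.

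Egr2, a zinc finger transcription factor, was at 0.243, 0.0562, 0 and 0.592 CPM at Day 0 and at 5.69, 4.03, 3.97 and 2.42 CPM at Day 3, a log2 fold change of 4.25 (SE 0.811, adjusted p = 0.0124). Its relative Egr1 went from 18.1 ± 11.6 to 136 ± 42.0 CPM with an adjusted p of 0.0100. The nuclear receptor gene Nr4a1 went from 7.83 ± 6.26 to 50.9 ± 5.93 CPM (log2 fold change 2.71), the AP-1 gene Junb from 32.7 ± 12.2 to 117 ± 37.4 CPM (1.84) and Zfp36, whose product degrades inflammatory mRNAs, from 43.9 ± 18.3 to 150 ± 33.8 CPM (1.77). Fos, Egr1, Nr4a1, Junb and Zfp36 were stable. Without Day 0 mouse 4, where these genes were highest at Day 0, the log2 fold changes were larger, at 5.01 for Fosb, 5.40 for Egr2 and 3.42 for Nr4a1. The MAP kinase phosphatase gene Dusp1 (1.54) fell to 1.49 without Day 0 mouse 3 and was also lost without Day 0 mouse 1 or Day 3 mouse 1. Egr2 was lost without Day 3 mouse 3 (adjusted p = 0.0502) and Fosb without any 1 of the Day 3 mice (up to 0.0587). Atf3, a stress-responsive repressor (2.89, or 3.81 without Day 0 mouse 4), was lost in 6 of the 8 cases, namely without Day 0 mouse 1 or 2 or any 1 of the Day 3 mice, with an adjusted p of up to 0.103.

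The serum response element core (CArG box, 10 letters) was found in the promoters of 2 of the 8 upregulated immediate early genes with an entry, in 1.6% of those of the genes tested and in 1.81% of all promoters. The 2 boxes of Egr2, whose entries differ in their start, at chr10:67537484-67537513 and chr10:67537787-67537816, and that of Zfp36 at chr7:28379267-28379296 are shown in capitals.
Egr2, first: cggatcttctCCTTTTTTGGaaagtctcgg
Egr2, second: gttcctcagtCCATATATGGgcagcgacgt
Zfp36: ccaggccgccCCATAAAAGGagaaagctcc
The cyclic AMP response element TGACGTCA, present in 3.3% of the promoters of genes tested and in 2.03% of all promoters, was found in those of Dusp1 (chr17:26508597-26508626) and of the p53 targets Btg2 (chr1:134079303-134079332) and Plk2 (chr13:110394971-110395000), where it is again in capitals.
Dusp1: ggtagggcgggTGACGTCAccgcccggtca
Btg2: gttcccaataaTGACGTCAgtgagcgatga
Plk2: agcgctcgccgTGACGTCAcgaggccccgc
Among all upregulated DEGs with an entry, 3.23% held the CArG box and 3.87% the cyclic AMP element, and among all downregulated DEGs 4.35% and 2.17%.

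Among chemokines, cytokines and their receptors, 4 genes were upregulated, of which Cxcl1, Lif and Il1f6 had Day 0 means under 1 CPM and Osmr was at 8.82 CPM. Of 31 chemokine genes listed, 18 had enough counts to test, 1 was upregulated and 1 downregulated, against 2 and 2 without Day 0 mouse 4 and 4 and 1 without both mice 3 and 4. Cxcl1, the main neutrophil attractant of the mouse, lies at chr5:90891241-90893115 (plus strand). It was at 0.365, 0.394, 0 and 0.263 CPM at Day 0 and at 7.44, 6.26, 8.28 and 2.29 CPM at Day 3. The Day 0 values rest on 17 reads in all, the Day 3 values on 544, and the groups did not overlap. Its log2 fold change of 4.6 (SE 0.736, adjusted p = 0.00819) was stable and was the largest among upregulated protein-coding genes whose mean was at least 2 CPM. Cxcl9, a T cell attractant induced by interferon gamma, fell from 3.93 ± 0.161 to 1.06 ± 0.466 CPM (log2 fold change -1.88, adjusted p = 0.0111, lost without Day 3 mouse 3 at 0.0511). Cxcl10 (1.28, adjusted p = 0.0146) and the abundant members Cxcl12 (from 124 to 209 CPM, 0.75, adjusted p = 0.0114) and Cx3cl1 (from 72.8 to 101 CPM, 0.47, adjusted p = 0.0266) were higher without reaching the fold threshold. The epithelial chemokine gene Ccl27a was lower, at -1.5 (adjusted p = 0.0411) with all mice and -0.78 without Day 0 mouse 3. The 12 members that did not pass lay between -1.75 and 1.01, among them Ccl6 (1.01, adjusted p = 0.0770, or 1.38 and 0.0184 without Day 0 mouse 4) and the monocyte attractant Ccl2 (0.68, adjusted p = 0.344).

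The promoter of Cxcl1 holds a κB site, the 10-letter motif bound by NF-κB, at chr5:90891164-90891193, within 71 bases of the start, and matches to it on the 2 strands overlap by 9 letters.
Cxcl1: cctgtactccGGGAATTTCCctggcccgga
This motif was found in the promoters of 4 of the 13 tested chemokine genes with an entry (30.8%) and in 5.14% of all promoters. It was present in 7.1% of all upregulated and 5.98% of all downregulated DEGs, against 6.29% of all genes tested. It was also found in 3 of the 8 upregulated immediate early genes with an entry (6 of the 17 tested, 35.3%), but in none of the 2 upregulated cytokine and receptor genes and not in the 1 upregulated gene of the NF-κB feedback and adhesion list with an entry.

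Among 21 tested cytokines and receptors, 3 were upregulated and none downregulated, and all 3 were stable. The median log2 fold change was 0.49, but 0.09 without Day 0 mouse 3 and 0.79 without Day 0 mouse 4, where 5 and 6 genes were upregulated. Lif, a cytokine of the interleukin-6 family, was at 0.73, 0.562, 0 and 0.789 CPM at Day 0 and at 12.7, 8.45, 11.9 and 3.56 CPM at Day 3, a log2 fold change of 4.19 (SE 0.767, adjusted p = 0.0110). Osmr, the receptor subunit for oncostatin M in the same family, rose from 8.82 ± 2.10 to 28.3 ± 7.44 CPM (1.68, SE 0.238). Il1f6, which encodes interleukin-36 alpha, had no read in any Day 0 library and was at 2.23, 1.62, 1.55 and 0.835 CPM at Day 3, which is at least 9.24-fold higher than a floor of 3 counts per library. Stat3, the transcription factor downstream of both Lif and Osmr, rose by 0.79 (SE 0.206, adjusted p = 0.0286). Of 20 tested NF-κB feedback and adhesion genes, 2 were upregulated, namely the NF-κB cofactor Nfkbiz (1.69, stable) and the adhesion molecule Icam1 (1.62, or 1.44 without Day 0 mouse 3). None of 26 interferon-stimulated genes was a DEG, with 4 higher (7 without Day 0 mouse 4) and 3 lower at an adjusted p under 0.05.

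Tubule injury markers were called in 1 case of 20. Lcn2, which encodes NGAL, was at 1.58, 3.77, 3.19 and 5.66 CPM at Day 0 and at 96.8, 25, 34 and 8.13 CPM at Day 3. Mouse 1 at Day 3 was highest and mouse 4 lay closest to the Day 0 mice. The log2 fold change was 3.53 (SE 0.735, adjusted p = 0.0155), or 2.66 without Day 3 mouse 1, and the call was lost without Day 3 mouse 3 (0.0505) and without both Day 0 mice 3 and 4 (0.0936). Lcn2 is also a neutrophil marker, and the other neutrophil markers S100a8 and S100a9 were at 0.773 ± 0.421 and 1.35 ± 0.834 CPM at Day 3 against 0.495 ± 0.106 and 0.734 ± 0.474 CPM at Day 0 (adjusted p = 0.377 and 0.342). The summed level of the 17 neutrophil markers was 5.66 to 14.3 CPM at Day 0 and 12.6 to 105 CPM at Day 3, with 4 to 13 of the 17 at 0 in any library. Without Lcn2 itself the sum of the other 16 was 3.49 to 8.61 CPM at Day 0 and 3.94 to 8.48 CPM at Day 3.

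Havcr1, which encodes the kidney injury molecule KIM-1, was at 1.03, 2.08, 1.68 and 0.263 CPM at Day 0 and at 3.79, 3.06, 2.98 and 1.63 CPM at Day 3. The groups overlapped, with a log2 fold change of 1.16 (SE 0.539, adjusted p = 0.141). The median over the injury list was 0.42, with the urokinase receptor gene Plaur (0.71) among those higher and the integrin gene Itgb6 (-1.25) lower at an adjusted p under 0.05, while the 16 members that did not pass lay between -1.13 and 1.94. Krt20, a keratin of injured epithelium, ranged from 0.615 to 9.38 CPM at Day 3 (adjusted p = 0.212). Of 20 tested keratin, claudin and junction genes, 1 was upregulated, the desmosome gene Dsp (1.6, SE 0.141, stable). Gdf15, a stress-induced hormone, rose from 16.8 ± 5.61 to 60.9 ± 20.8 CPM (1.85, stable).

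**Figure D2:**
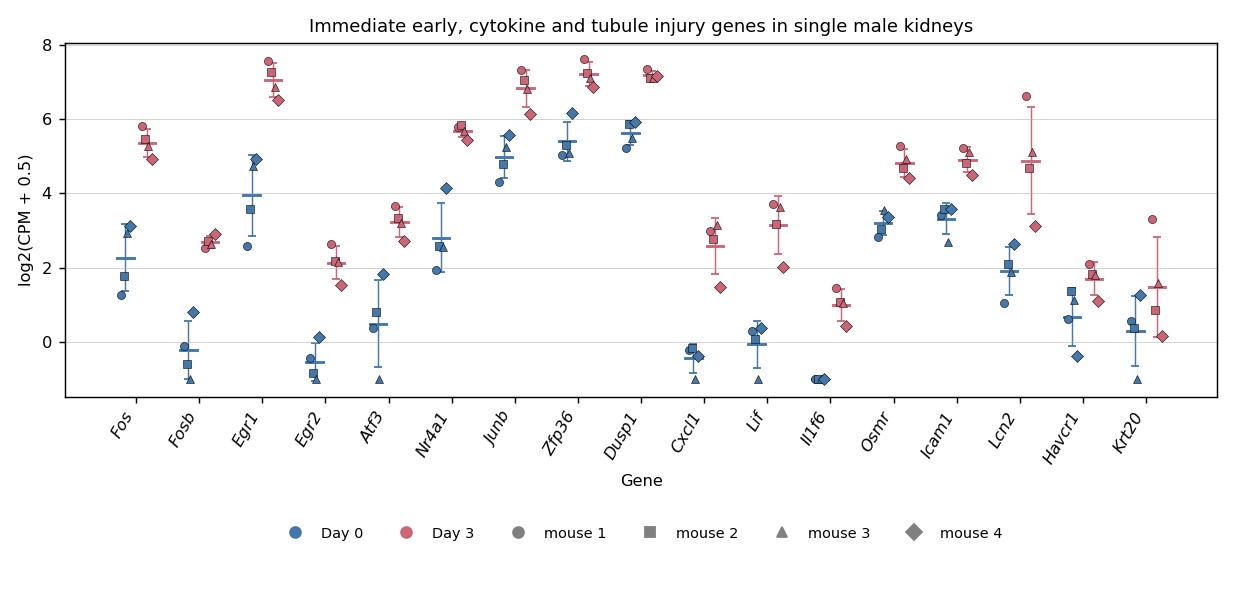
The vertical axis is log2(CPM + 0.5) of immediate early, cytokine, chemokine and injury genes in each male kidney at Day 0 (blue) and Day 3 (red), with 1 point a mouse, a line for the mean and a bar for its SD. Fos and Cxcl1 do not overlap between the days, and the 4 Day 3 values of Lcn2 run from 8.13 to 96.8 CPM.

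Genes known to respond to glucocorticoids included 5 upregulated DEGs among 19 tested, with a median log2 fold change of 0.67. Among them were Lcn2, Cdkn1a and Dusp1, which belong to the lists above as well. Zbtb16, a transcriptional repressor, was at 1.03, 0.619, 0 and 3.02 CPM at Day 0 and at 43.7, 8.71, 6.68 and 3.96 CPM at Day 3, a log2 fold change of 3.81 (SE 1.12, adjusted p = 0.0407). Its call was lost in 6 of 8 cases, namely without Day 0 mouse 1 or 2 or any 1 of the Day 3 mice, and its log2 fold change was 2.5 without Day 3 mouse 1 (adjusted p = 0.136) and 4.92 without Day 0 mouse 4. The kinase gene Map3k6 rose from 3.09 ± 1.61 to 17.4 ± 11.9 CPM (2.50, adjusted p = 0.0182) and was lost without Day 3 mouse 3 (0.0574). The cochaperone gene Fkbp5 was at 258, 116, 114 and 60.4 CPM at Day 3 against 60.9 to 100 CPM at Day 0 (adjusted p = 0.149). Mouse 1 was the highest Day 3 mouse for all 3 genes, and the same library had a summed adrenal marker level of 81.6 CPM against 6.20 to 7.40 CPM in the other Day 3 libraries. At Day 0 that sum was 4.89 to 6.57 CPM in mice 1 to 3 and 76.9 CPM in mouse 4, with 1 to 12 of the 14 markers at 0 in any library, and the part of these markers in the glucocorticoid genes was not tested.

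Of 36 tested matrix and fibrosis genes, 4 were upregulated (11.1%, against 1.87% of all genes tested) and none downregulated, with 2 upregulated without Day 0 mouse 3 and 7 without Day 0 mouse 4. Their median was 0.44, or 0.82 without mouse 4. At an adjusted p under 0.05, 11 were higher and 1 lower, and 17 were higher without mouse 4 and 24 without both mice. Cyr61, a matricellular protein, was at 19.0, 35.2, 27.5 and 22.3 CPM at Day 0 and at 113, 73.3, 71.0 and 69.3 CPM at Day 3, a log2 fold change of 1.65 (SE 0.236) that was 1.46 without Day 3 mouse 1. The fibroblast receptor gene Pdgfra rose from 25.7 ± 12.9 to 76.4 ± 7.53 CPM (1.57) but was lost without Day 0 mouse 1 or 3 or Day 3 mouse 1 or 3, with a value of 1.34 without Day 0 mouse 3. Gdf15, given above, also belongs to this list. Acta2, the smooth muscle actin of myofibroblasts, was -1.07 at an adjusted p under 0.05. Of 29 tested genes of the renin and endothelin systems and hormone receptors, 2 were upregulated, the bradykinin receptor gene Bdkrb2 (2.72, adjusted p = 0.0400, or 3.32 without Day 0 mouse 4) and the leptin receptor gene Lepr (1.54, or 1.36 without Day 0 mouse 4). Bdkrb2 was lost without Day 0 mouse 1 or 2 or any 1 of the Day 3 mice (up to 0.111), and Lepr also without Day 0 mouse 1 or Day 3 mouse 2. The endothelin receptor gene Ednrb had little spread, at 12.3 ± 0.605 and 33.8 ± 0.667 CPM, and its log2 fold change of 1.46 (SE 0.0984, adjusted p = 0.00058) lay just under the fold threshold.

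Segment genes of the tubule were mostly not called, apart from calcium genes of the distal convoluted tubule and the collecting duct genes Rhbg and P2ry14. None of 37 proximal tubule transporters and none of 21 thick ascending limb genes was a DEG. The phosphate transporter gene Slc34a1 was at 6123 ± 404 and 4471 ± 826 CPM (log2 fold change -0.45, adjusted p = 0.109), the endocytosis receptor gene Lrp2 at 1092 ± 76.2 and 1484 ± 436 CPM (0.44, adjusted p = 0.164), and the cation transporter gene Slc22a2, which carries cisplatin, at 386 ± 62.8 and 304 ± 35.7 CPM (-0.35, adjusted p = 0.139). Umod, which encodes uromodulin, had Day 0 values of 1823, 1858, 525 and 321 CPM, so that its sign turned with the libraries, from 0.18 with all mice to -0.06 without mouse 3, -0.13 without mouse 4 and -0.54 without both. Of 18 tested podocyte genes none was a DEG, but 7 were higher at an adjusted p under 0.05, among them the slit diaphragm gene Nphs1 (1.13, adjusted p = 0.0343). The median of this list was 0.76, or 0.55 without Day 0 mouse 3 and 0.95 without Day 0 mouse 4. Of 36 tested drug transporters, 2 were upregulated, the P-glycoprotein gene Abcb1b (2.08, lost without Day 0 mouse 2, Day 3 mouse 1 or Day 3 mouse 3) and the copper pump gene Atp7a (1.94, or 2.85 without Day 0 mouse 4, lost without Day 0 mouse 1 or 2 or any 1 of the Day 3 mice).

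The calcium-binding protein genes of the distal tubule fell together. Calb1, which encodes calbindin-D28k, was at 298, 340, 361 and 294 CPM at Day 0 and at 58.6, 52.9, 71.8 and 92.6 CPM at Day 3, a log2 fold change of -2.23 (SE 0.195, adjusted p = 0.00162). Pvalb, which encodes parvalbumin, was at 27.6, 29.1, 153 and 56.2 CPM at Day 0 and at 2.04, 4.33, 4.83 and 7.12 CPM at Day 3, a log2 fold change of -3.86 (SE 0.652, adjusted p = 0.00915) that was -3.03 without Day 0 mouse 3. S100g, which encodes calbindin-D9k, was at 464, 529, 1868 and 482 CPM at Day 0 and at 253, 203, 182 and 148 CPM at Day 3. The groups did not overlap, but its fold change of -2.09 was -1.33 without Day 0 mouse 3, and the call was lost without any 1 of the Day 3 mice as well, with an adjusted p of up to 0.0733. In contrast the epithelial calcium channel gene Trpv6 rose from 1.28, 1.29, 1.01 and 0.789 CPM to 8.29, 6.17, 6.21 and 3.21 CPM (2.44, SE 0.337, adjusted p = 0.00569). Calb1, Pvalb and Trpv6 were stable. In all, 1 of the 24 tested genes of this segment was upregulated and 3 were downregulated, and the sodium chloride transporter Slc12a3 was at 452 ± 40.4 and 283 ± 107 CPM (-0.67, adjusted p = 0.0822). Of 30 tested collecting duct genes, the ammonia transporter Rhbg was downregulated (-1.92, or -1.39 without Day 0 mouse 3) and P2ry14, a receptor of intercalated cells, upregulated (1.57, or 1.49 without Day 0 mouse 3). Rhbg was also lost without Day 3 mouse 1, 2 or 3, and P2ry14 without Day 0 mouse 1 or Day 3 mouse 1.

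Of 55 tested genes of fatty acid oxidation and targets of the PPAR nuclear receptors, 2 were upregulated and 1 downregulated, and 7 were higher and 6 lower at an adjusted p under 0.05, near the shares of all genes tested. They had a median of 0.00 that was -0.15 without Day 0 mouse 3. Cyp4a14, an omega-hydroxylase of fatty acids, was at 8.09, 13.6, 11.2 and 49.1 CPM at Day 0 and at 653, 90.1, 412 and 152 CPM at Day 3, a log2 fold change of 4.0 (SE 0.819, adjusted p = 0.0149) that was 4.9 without Day 0 mouse 4. The Day 3 mice differed widely but all lay above Day 0, and the call was lost without Day 3 mouse 3 (0.0525). Its neighbour Cyp4a10, a close paralog whose reads may not have been separated fully from it, rose from 140 ± 37.3 to 472 ± 220 CPM (1.75) and was lost without Day 3 mouse 1 or 3. The electron carrier gene Etfb fell by 2.34 on the log2 scale, from 84.5, 90.2, 556 and 125 CPM to 45.9, 39.6, 40.6 and 43.2 CPM, but by 1.24 without Day 0 mouse 3, and its call was lost without any 1 of the Day 3 mice too.

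The receptor genes themselves moved apart. Ppara, the receptor for fatty acids in oxidative tissue, was at 9.18, 8.27, 10.8 and 23.1 CPM at Day 0 and at 50, 35.3, 49.5 and 33.2 CPM at Day 3, a log2 fold change of 1.71 (SE 0.337, adjusted p = 0.0132, lost without Day 3 mouse 3 at 0.0525). Ppard, the widely expressed receptor of the same family at chr17:28232700-28301474, was at 97.6, 115, 105 and 72.9 CPM at Day 0 and at 18.4, 19.0, 16.6 and 17.2 CPM at Day 3. Its log2 fold change of -2.45 (SE 0.155, adjusted p = 0.00058) was stable. Pck1, the first committed enzyme of gluconeogenesis, was the single DEG among 30 tested glycolysis and gluconeogenesis genes, at 973 ± 459 and 4006 ± 2134 CPM (2.04), and was lost without Day 0 mouse 1 or 2 or Day 3 mouse 1, 2 or 3, with an adjusted p of up to 0.0813.

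Kynu and Acmsd, which act on the route from tryptophan to NAD, moved in opposite directions. Kynu, which encodes kynureninase, was at 3.04, 2.42, 3.15 and 5.85 CPM at Day 0 and at 18.8, 18.8, 20.2 and 21.3 CPM at Day 3, a log2 fold change of 2.46 (SE 0.266, adjusted p = 0.00307). Acmsd, whose product diverts an intermediate away from NAD, was at 166, 170, 137 and 194 CPM at Day 0 and at 29.3, 55.6, 32.1 and 74.1 CPM at Day 3, a log2 fold change of -1.80 (SE 0.299, adjusted p = 0.00867). The methyltransferase gene Inmt fell from 1198 ± 256 to 164 ± 73.1 CPM (-2.87, SE 0.368). All 3 were stable. Odc1, the first enzyme of polyamine synthesis, fell from 1829 ± 396 to 628 ± 244 CPM (-1.54) and was lost without Day 0 mouse 1, Day 3 mouse 1 or Day 3 mouse 3. The glycine cleavage gene Gldc rose by 1.53 on the log2 scale, but was called in only 2 of 8 cases, namely without Day 0 mouse 4 or Day 3 mouse 4. Over the 43 tested genes of amino acid, creatine and NAD metabolism the median was 0.03, but -0.01 without Day 0 mouse 3 and -0.21 without Day 0 mouse 4, with 5 genes higher and 11 lower at an adjusted p under 0.05.

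Of 45 nuclear genes of oxidative phosphorylation, 35 were lower and none higher at an adjusted p under 0.05, and 41 had lower values in all 4 Day 3 mice than in any Day 0 mouse. Their median log2 fold change was -0.98, and -0.66 without Day 0 mouse 3. The 3 DEGs were the complex I genes Ndufa1 (-1.52) and Ndufa2 (-1.75) and the complex III gene Uqcrq (-1.94), which were -0.94, -0.83 and -1.12 without Day 0 mouse 3, so that none was then a DEG. Their calls were also lost without any 1 of the Day 3 mice. Uqcrq, the member with the largest fall, was at 468, 528, 2238 and 654 CPM at Day 0. It was at 264, 258, 246 and 247 CPM at Day 3. Over the list, the median in Day 0 mouse 3 lay 0.59 above the Day 0 mean on the log2 scale. Of 48 tested proteasome and ribosome genes, 22 were lower and none higher at an adjusted p under 0.05, with a median of -0.73. Without Day 0 mouse 3 there were 33 lower and the median was -0.45, and without Day 0 mouse 4 there were 36 lower. The ribosomal genes Rps27a (-1.91) and Rpsa (-1.63) were the 2 DEGs and were -1.31 and -0.82 without Day 0 mouse 3. Both were also lost without Day 3 mouse 1, 3 or 4, and Rpsa without Day 3 mouse 2, and both have processed copies elsewhere in the genome that may share reads. The transcripts of the mitochondrial genome held 1 DEG of 13, mt-Atp8 (1.64). Its call was lost without Day 0 mouse 1 or 2 or Day 3 mouse 2, 3 or 4. The value was 1.1 without Day 3 mouse 2 and 1.5 without Day 0 mouse 3. This gene was read at only 2.1 CPM at Day 0 and 6.6 CPM at Day 3, against 17760 and 13000 CPM for mt-Nd1. The median over the 13 transcripts was -0.31, but 0.13 without Day 0 mouse 4 and 0.11 without both mice 3 and 4.

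These lists are made of short genes, and log2 fold changes differed by gene span. The median span, from start to end in the annotation with introns, was 7.21 kb for the oxidative phosphorylation genes. It was 5.95 kb for the proteasome and ribosome genes, against 20.4 kb for all genes tested. The podocyte genes, whose median log2 fold change was 0.76, had a long median span of 80.1 kb. Among 3327 tested protein-coding genes under 10 kb the median log2 fold change was -0.37, and 4.6% were downregulated DEGs. It was -0.04 for 10 to 30 kb, 0.20 for 30 to 100 kb and 0.34 for the 1518 genes of 100 to 300 kb. Without Day 0 mouse 3 the values for the shortest and for the 100 to 300 kb genes were -0.31 and 0.27, and in female mice -0.33 and 0.29. Day 0 mouse 3 itself stood on the other side of the Day 0 mean, at 0.17 for the shortest genes and -0.23 for those of 100 to 300 kb. The annotation classes differed in the same table. Of 225 tested TEC entries, which are loci that the annotation lists as still to be settled by experiment, 47 (20.9%) were upregulated DEGs, and of 30 sense intronic transcripts 8 were, against 1.26% of protein-coding genes. The part of span or of intronic reads in the results by pathway was not tested.

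**Figure D3:**
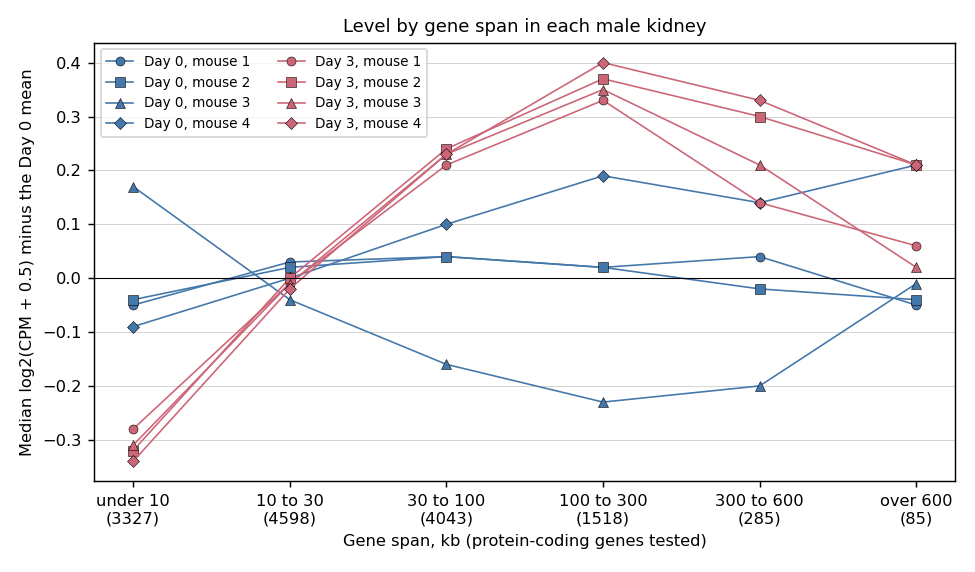
Each line is 1 male kidney (Day 0 blue, Day 3 red), and its points are the median of log2(CPM + 0.5) minus the Day 0 mean over tested protein-coding genes, by gene span in kb. The 4 Day 3 mice lie between -0.34 and -0.28 under 10 kb and between 0.33 and 0.4 at 100 to 300 kb, and Day 0 mouse 3 lies at 0.17 and -0.23.

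Of 85 tested protein-coding genes over 600 kb, 6 were downregulated (7.06%) and 2 upregulated. Fhit, a tumour suppressor gene that spans 1612 kb at chr14:9550092-11162035 and holds a common fragile site, was at 6.20, 7.25, 17.3 and 5.66 CPM at Day 0 and at 0.142, 0.131, 0.0862 and 0.264 CPM at Day 3. The Day 3 values rest on 14 reads in all against 729 at Day 0, and the log2 fold change was -5.82 (SE 0.538, adjusted p = 0.00216). Immp2l, a mitochondrial protease gene of 931.5 kb, was at 3.95, 5.17, 9.24 and 3.42 CPM at Day 0 and at 0.332, 0.481, 0.345 and 0.352 CPM at Day 3 (-3.83, SE 0.399). Lsamp, a cell adhesion gene, fell by 3.64, the scaffold gene Anks1b by 2.53 and the catenin gene Ctnna2 by 1.61 on the log2 scale. Fhit, Immp2l, Lsamp and Anks1b were stable, and Ctnna2 was lost without Day 0 mouse 1 or any 1 of the Day 3 mice. The upregulated pair was the channel gene Trpm3 (1.8, lost without Day 3 mouse 3) and the guidance receptor gene Robo1 (1.6, called in 1 of 8 cases, without Day 0 mouse 4). Of the other 77 genes of this size, 14 were higher and 6 lower at an adjusted p under 0.05, and the median over all 85 was 0.09.

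Transcripts of red blood cells were nearly absent at Day 3. Hbb-bs, an adult beta-globin gene, was at 284, 263, 1177 and 196 CPM at Day 0 and at 1.04, 0.0875, 0.216 and 0.264 CPM at Day 3, a log2 fold change of -10.23 (SE 0.997, adjusted p = 0.00235). The alpha-globin gene Hba-a1 was at 256, 256, 1042 and 247 CPM at Day 0 and at 0.901, 0.175, 0.302 and 0.747 CPM at Day 3 (-9.72, SE 0.827). Its near-identical copy Hba-a2, at chr11:32296489-32297298, had no read at Day 3, which is at least 396-fold lower, or 149-fold without Day 0 mouse 3, although reads of these copies may not be separable. Hbb-bt had 3 reads at Day 3 in all, a ratio of 1480 with a counting interval of 507 to 7200. Alas2, the heme synthesis enzyme of red cell precursors, was at 6.56 ± 2.34 and 0.566 ± 0.106 CPM (-3.52, SE 0.334). Without Day 0 mouse 3, where the globins were highest, the log2 fold changes were -9.28 for Hbb-bs, -8.90 for Hba-a1 and -9.32 for Hbb-bt, and without Day 3 mouse 1 they were -11.26 for Hbb-bs and -12.79 for Hbb-bt. All 5 erythroid DEGs, of 6 members tested, were stable, although 4 were DEGs without both Day 0 mice 3 and 4, where Hba-a2 had an adjusted p of 0.097, and the summed level of the list was 552 to 2504 CPM at Day 0 and 22.8 to 38.1 CPM at Day 3.

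Among markers of immune cells resident in kidney, H2-Eb1 and H2-Ab1, of the MHC class II family for antigen presentation, and the invariant chain gene Cd74 fell. Of 23 tested macrophage and monocyte markers, 6 were downregulated and none upregulated, and their summed level was 687.5 to 1151 CPM at Day 0 and 325 to 357 CPM at Day 3. The 3 MHC class II genes of the list and the invariant chain gene made up 485 to 838 CPM of this sum at Day 0 and 148 to 208 CPM at Day 3, and the other 20 markers 203 to 359 and 149 to 200 CPM. At an adjusted p under 0.05, 10 were lower and 1 higher, the endotoxin receptor gene Cd14 (0.82, adjusted p = 0.0452, or 0.0638 without Day 0 mouse 4). The macrophage genes Adgre1 (-0.36, adjusted p = 0.504) and Cd68 (0.16, adjusted p = 0.736) did not pass, and their signs turned without Day 0 mouse 4 (0.16) and without Day 0 mouse 3 (-0.01). H2-Eb1, an MHC class II chain gene, was at 95, 110, 197 and 128 CPM at Day 0. It was at 26.8, 38.3, 32.1 and 37.1 CPM at Day 3, a log2 fold change of -1.98 (SE 0.240, adjusted p = 0.00416). H2-Ab1, another MHC class II chain gene (-1.94), and the invariant chain gene Cd74 (-1.71) fell as well. H2-Eb1, H2-Ab1 and Cd74 were stable in direction and call. The complement gene C1qa (-1.55), the macrophage gene Aif1 (-1.97) and the adaptor gene Tyrobp (-1.57) were -0.98, -1.49 and -1.04 without Day 0 mouse 3. Each was also lost without Day 3 mouse 1, 2 or 3, C1qa and Tyrobp without Day 3 mouse 4, and C1qa without Day 0 mouse 4. Without both Day 0 mice 3 and 4, 2 of the 23 markers were DEGs.

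Lymphocyte and fat genes were high in Day 0 mouse 4. Of 10 tested lymphocyte markers 4 were downregulated, but the summed level of this list was 242 CPM in that mouse, 35.4 to 68.6 CPM in the other Day 0 mice and 16.6 to 23.3 CPM at Day 3. The immunoglobulin gene Ighm was at 8.64, 8.44, 15.9 and 106 CPM at Day 0 and at 3.75 to 5.67 CPM at Day 3, so that its log2 fold change of -2.82 was -1.17 without mouse 4, while Igkc (-2.76, or -1.70 without it), Trbc1 and Trbc2 remained DEGs without it. Trbc1, a T cell receptor chain, was highest in Day 0 mouse 3, and its log2 fold change of -2.91 was -1.64 without that mouse. Without both mice 3 and 4 no lymphocyte marker was a DEG. Of 12 tested fat cell markers, 5 were downregulated, with the hormones Lep (-2.94), Retn (-2.95) and Adipoq (-1.57), the protease Cfd (-1.90) and the fatty acid carrier Fabp4 (-1.90), and Pck1 was upregulated. The summed level of this list was not lower at Day 3, at 2235 to 6775 CPM against 1374 to 5099 CPM at Day 0. Pck1, which is also a gluconeogenesis gene, alone had means of 973 CPM at Day 0 and 4006 CPM at Day 3. Fabp4 was at 202, 204, 308 and 923 CPM at Day 0 and at 87.5 to 131 CPM at Day 3, and without mouse 4 it was -1.12, Adipoq -0.90 and Cfd -1.06, and Lep (-1.78) and Retn (-2.38) were the 2 downregulated DEGs left. Ighm, Igkc, Trbc1, Trbc2, Lep, Adipoq, Cfd and Fabp4 were lost without any 1 of the Day 3 mice. Retn was stable, from 42.4 ± 29.5 to 5.49 ± 1.61 CPM. Thrsp, a lipogenic gene of fat and liver, was at 82.5, 90.0, 147 and 725 CPM at Day 0 and at 17.2, 13, 13.5 and 27.7 CPM at Day 3 (-3.87, or -2.57 without mouse 4, and lost without Day 3 mouse 1, 2 or 3).

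**Figure D4:**
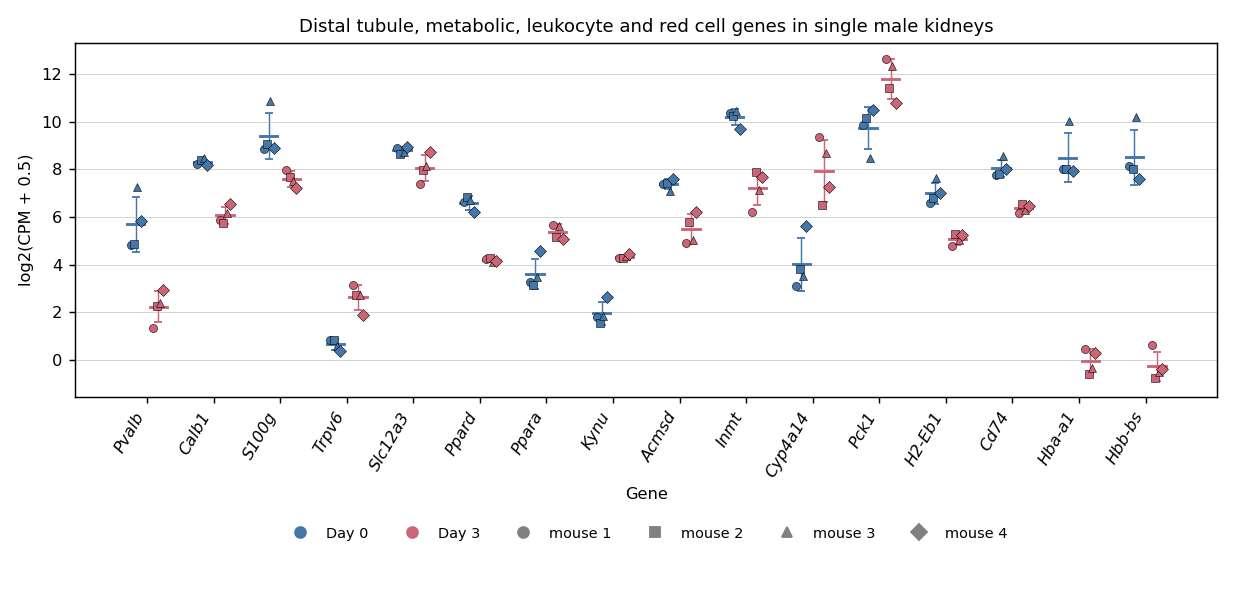
The vertical axis is log2(CPM + 0.5) of distal tubule, metabolic, leukocyte and globin genes in each male kidney at Day 0 (blue) and Day 3 (red), with 1 point a mouse, a line for the mean and a bar for its SD. Calb1 goes from 294–361 to 52.9–92.6 CPM, and Hbb-bs from 196–1177 to 0.0875–1.04 CPM.

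Further genes of large change follow, of which Orm1 and Fgg belong to the complement, fibrinogen and acute phase list. Orm1, an acute phase protein of liver, fell by 4.61 (SE 0.693) on the log2 scale, or by 3.92 without Day 0 mouse 4, from 4.32, 5.23, 13.3 and 26.7 CPM to 0.427, 0.263, 0.474 and 0.835 CPM, while the fibrinogen gene Fgg rose by 2.14 (1.51 without Day 3 mouse 1) with overlapping groups and was called in only 1 of 8 cases, namely without Day 3 mouse 4. Retnla, a product of alternatively activated macrophages and fat, fell by 3.77 (SE 0.547) and Cd209f, a lectin, by 3.50 (SE 0.815), or by 2.32 without Day 0 mouse 4. Orm1 and Retnla were stable, and Cd209f was lost without any 1 of the Day 3 mice. Dscaml1, an adhesion molecule, rose from 0.655 ± 0.556 to 7.82 ± 0.581 CPM (3.60, or 4.28 without Day 0 mouse 2, and lost without Day 3 mouse 3 at 0.0552). The glucuronidation gene Ugt1a10, whose reads may be shared because the Ugt1a genes have exons in common, rose by 4.25 (SE 1.12), or 5.61 without Day 0 mouse 4 and 3.34 without Day 3 mouse 1, and was lost without Day 0 mouse 1 or 2 or any 1 of the Day 3 mice. Ephx1, an epoxide hydrolase and Nrf2 target, rose from 44.1 ± 10.7 to 155 ± 58.4 CPM (1.82, stable), and was the single DEG of 24 tested Nrf2 targets.

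The remaining lists are given by their counts, of which the DEGs with all mice stand beside 3.72% of all genes tested. There was 1 among 24 integrated stress response genes, Gdf15, and the regulator Atf4 was lower (-0.75, SE 0.128, adjusted p = 0.00922). Of 26 chaperones 1 was downregulated, Hspe1 (-1.62, or -1.05 without Day 0 mouse 3, and lost without any 1 of the Day 3 mice). Of 25 cholesterol genes 1 was upregulated, the exporter Abca1 (1.65, called in 1 of 8 cases, without Day 0 mouse 4), while 7 were lower at an adjusted p under 0.05 and 12 without Day 0 mouse 3. Among 30 androgen-dependent genes of the proximal tubule Odc1 was the single DEG, and 8 were lower and none higher at an adjusted p under 0.05, whereas without Day 0 mouse 4 there were 3 downregulated DEGs and 16 lower. Kap, the most abundant of them, was at 29290, 30690, 91540 and 13670 CPM at Day 0 and at 9273, 16050, 12260 and 14990 CPM at Day 3 (-1.65, adjusted p = 0.0548). It was a DEG without Day 0 mouse 4 (-1.94, adjusted p = 0.0166) and was -0.90 without Day 0 mouse 3. Of 18 metal and iron genes the metallothionein Mt3 (-2.96, or -2.07 without Day 0 mouse 4) and the iron carrier Trf (-1.66) were downregulated beside the rise of Lcn2, and Mt1 overlapped between the days (-0.08, adjusted p = 0.905). Of 53 detoxification genes 1 was downregulated, the hydrocarbon-induced Cyp1a1 (-1.82), and of 9 hepatocyte markers Trf and the thyroxine carrier Ttr (-1.67) were. Mt3, Trf and Cyp1a1 were lost without any 1 of the Day 3 mice, Trf also without Day 0 mouse 3 or 4, Cyp1a1 without Day 0 mouse 4, and Ttr without Day 0 mouse 2 or Day 3 mouse 1, 3 or 4. None of 19 tested genes of the EGF receptor family and none of 28 of the VEGF and endothelium list was a DEG. Of 24 complement, fibrinogen and acute phase genes, Fgg was upregulated (4.17%) and Orm1, Cfd and C1qa were downregulated (12.5%). Of 32 tubule transcription factor genes, Ppara was upregulated and Ppard downregulated. Of 2 tested muscle and pancreas markers, Cela1 was downregulated (-1.71, or -1.34 and not called without Day 0 mouse 3). None of 2 adrenal and 12 kidney segment markers tested was a DEG.

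**Figure D5:**
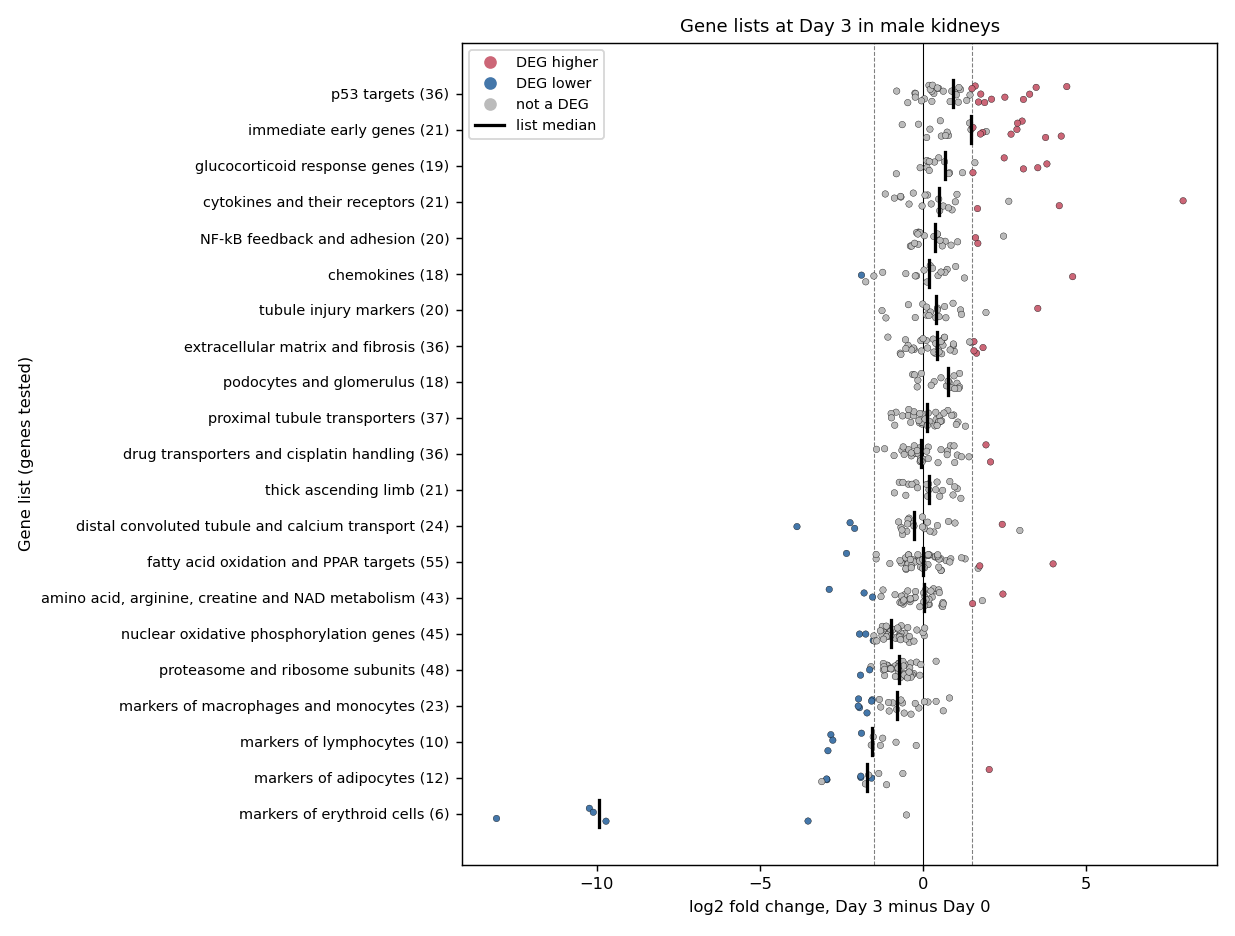
Each point is the log2 fold change (Day 3 minus Day 0, horizontal axis) of 1 tested gene in 21 gene lists, coloured by call, with a black bar for the list median and dashed lines at the fold threshold of 1.5. The medians are 0.93 for the p53 targets, 1.48 for the immediate early genes and -0.98 for the oxidative phosphorylation genes.

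Day 3 was then set beside Day 2 of the same sex, in 4 other male mice. No gene was a DEG by edgeR, upwards (0%) or downwards (0%), of 16232 tested, and 1410 genes had an unadjusted p under 0.05. DESeq2 called 22. Cdkn1a differed by -0.21 (SE 0.734, adjusted p = 0.929) and Eda2r by 0.13, so that p53 targets were not told apart between the days at this spread. Cxcl1 differed by 0.70 (SE 0.416) and Lcn2 by 1.62 (SE 0.778), with adjusted p of 0.589 and 0.573, and Havcr1 by -2.78 (SE 1.12, adjusted p = 0.573).

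The same contrast in 4 female mice at Day 3 and 4 at Day 0 used other animals. It gave 87 upregulated (0.51%) and 337 downregulated DEGs (1.97%) of 17065 genes. For Day 0 females the labels list cisplatin as treatment, although the study's text calls Day 0 mice healthy. Of the 298 male upregulated DEGs, 267 could be tested in females, 246 had the same direction, and 32 were DEGs, which is 10.7% of the male list and 36.8% of the female list. Of the 293 male downregulated DEGs, 283 could be tested, 280 had the same direction, and 121 were DEGs, 41.3% of the male and 35.9% of the female list. Over all genes tested in both sexes, 52.3% were above 0 in females.

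Cdkn1a rose by 4.20 (SE 0.761, adjusted p = 0.0465) in females and Lcn2 by 4.4 (SE 0.808, adjusted p = 0.0465). Havcr1 rose by 5.86 (SE 1.21, adjusted p = 0.0465) in females against 1.16 in males, but the difference of -4.72 (SE 1.29) had an adjusted p of 0.478 in a fit with an interaction of sex and day. Fos was 0.62 (SE 0.852) in females, and its difference from males of 2.43 had an adjusted p of 0.640. Of 17598 genes tested for that interaction, 2 passed (0.0114%), and none passed without male Day 0 mouse 1 or without male Day 3 mouse 1, 3 or 4. Kynu rose in males and was -0.51 (SE 0.294) in females, a difference of 2.94 (SE 0.407, adjusted p = 0.0213). Ppard fell in males and was -0.75 (SE 0.159, adjusted p = 0.0467) in females, a difference of -1.73 (SE 0.217, adjusted p = 0.0123).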

How the data were processed

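The authors isolated total RNA from whole kidneys with an RNeasy mini kit, sequenced paired-end reads of 150 bp on a HiSeq4000 and deposited raw counts of reads per gene, together with a table of FPKM. Their deposited FPKM equal each count divided by gene length and by 1 constant per library, and served here only to check the counts. The paper names GRCm38, whereas the submitters' processing notes name GRCm39, HTSeq and DESeq2 without versions. Of 54532 genes, 53585 have the start and end of GENCODE M21, an annotation of GRCm38, so coordinates are GRCm38. The aligner and strandedness are not given in the sources used here, and overlapping genes on opposite strands may share reads.

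The 8 libraries were fitted alone with edgeR 4.0.16 in R 4.3.3 (filterByExpr, TMM factors, robust quasi-likelihood test, Benjamini-Hochberg adjustment), which was also tested on simulated counts. CPM are scaled by the TMM factors of these 8 libraries. Each SE belongs to a log2 fold change. Alternatives were DESeq2 1.42.0, limma 3.58.1 (voom with sample quality weights), other filters, thresholds and sample sets, and fits without each mouse. Leaving out both Day 0 mice 3 and 4, the neutrophil sum without Lcn2, the split of the macrophage sum and the bound for Hba-a2 without Day 0 mouse 3 were added after the values were seen. Ratios against groups of 0 to 3 reads use a floor of 3 counts per library or a 95% interval for counting error only.

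The comparison and the 46 gene lists were chosen with earlier results of these data known. The rule for naming genes takes 228 genes, namely the 12 protein-coding DEGs of largest rise and of largest fall with non-overlapping groups and at least 2 CPM in the higher group, the first 2 symbols and up to 4 DEGs per direction of each list, all tested members of the p53, chemokine and injury lists, Kynu and Ppard. Atf3, Nr4a1, Junb, Zfp36, Dusp1, Tyrobp, Ednrb, Stat3, Cxcl12, Acta2, Cd14 and the genes over 600 kb other than Fhit and Immp2l were named after their values were seen. The text names the genes of these on which a result turns and gives the others only in the counts, medians and ranges of their lists. Some genes are not reported here.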

Additional observations from a re-analysis of the deposited data

Results flagged for a closer look

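In each group of 4 mice, a value was listed when its gap to the nearest other mouse took up an unusually large share of the group's range (Dixon's test at 95%). For independent groups of normally distributed values, chance gives about 1 such value in 20 groups. CPM of genes named in the text, without a log scale and from the same libraries, need not meet this. No excess over chance is claimed. In all, 47 values arose from the 312 groups examined. Of these, 17 were in Day 0 mouse 3, 20 in Day 0 mouse 4, none in Day 0 mice 1 and 2, and 10 at Day 3. The causes were not tested.

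Day 0 mouse 3 had a total of 30740491 counts, against 16502107 to 18116995 in the other Day 0 libraries, and a summed erythroid level of 2500 CPM against 552 to 615 CPM. The globins stood at 1040 CPM for Hba-a1, 152 CPM for Hba-a2, 1180 CPM for Hbb-bs and 99 CPM for Hbb-bt. Single genes of energy supply, ribosomes and folding were high in this mouse, with 556 CPM for Etfb, 2240 CPM for Uqcrq, 361 CPM for Ndufa1, 982 CPM for Ndufa2, 3000 CPM for Rpsa and 584 CPM for Hspe1. Whole lists differed, as log2 medians against the Day 0 mean. These were 0.59 for oxidative phosphorylation, 0.74 for proteasome and ribosome genes and 0.17 for chaperones. Fatty acid oxidation genes were at -0.2 and glycolysis and gluconeogenesis genes at -0.13. S100g was at 1870 CPM against 464 to 529 CPM, Fhit at 17.3 CPM against 5.66 to 7.26 CPM, Ccl27a at 38.8 CPM against 9.96 to 12.3 CPM and Trbc1 at 6.13 CPM against 0.608 to 1.51 CPM. Mdm2 was low, at 28.3 CPM against 35.6 to 36.3 CPM.

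In Day 0 mouse 4, transcripts of the mitochondrial genome summed to 268000 CPM against 80900 to 107000 CPM, lymphocyte markers to 242 CPM, adipocyte markers to 5100 CPM and adrenal markers to 76.9 CPM against 4.89 to 6.57 CPM. The fat genes stood at 137 CPM for Adipoq, 15.7 CPM for Lep, 923 CPM for Fabp4, 225 CPM for Plin1 and 725 CPM for Thrsp. The immunoglobulin genes stood at 106 CPM for Ighm and 93.3 CPM for Igkc, and the lectin Cd209f at 10.6 CPM. High values were also found for Cyp4a14 (49.1 CPM), Ppara (23.1 CPM), Nr4a1 (17.1 CPM), Ccl6 (11.2 CPM), Atp7a (7.96 CPM), Cxcl10 (6.12 CPM), Mt3 (3.48 CPM) and Adgre1 (10.6 CPM).

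At Day 3, mouse 1 had a total of 18822537 counts against 20800669 to 20946652, a summed adrenal level of 81.6 CPM against 6.2 to 7.4 CPM, and 43.7 CPM for Zbtb16 against 3.96 to 8.71 CPM. It also stood apart for Cyr61 (113 CPM), Pdgfra (87.6 CPM) and Hbb-bt (0.142 CPM against 0). Mouse 2 was high for Rps27a (151 CPM against 63.2 to 75.2 CPM) and Immp2l (0.481 CPM). Mouse 4 was low for Cxcl10, at 6.72 CPM against 11.6 to 12.4 CPM, and its erythroid sum was 38.1 CPM against 22.8 to 24.5 CPM.

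The response at Day 3 differed between the sexes for Kynu, by 2.94 (males minus females, log2), and for Ppard, by -1.73, in the edgeR interaction test. These were 2 of 17598 genes, while 1252 had an unadjusted p under 0.05 and DESeq2 called 75.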

How the results depend on the processing

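The 298 upregulated and 293 downregulated DEGs kept their numbers with the size factors of DESeq2 in edgeR, and were 682 and 494 with the DESeq2 Wald test, 575 and 124 with limma voom and sample weights, 294 and 197 with no filter on low counts, 148 and 223 with at least 10 counts in every library, 458 and 435 in 1 fit over the 4 male groups, 289 and 315 without mitochondrial genes, and 613 and 819 at an absolute log2 fold change over 1. With each mouse left out in turn they lay between 104 and 518 and between 52 and 449, and without Day 0 mice 3 and 4 they were 677 and 155. The mouse number gave no pairing, since the deviations of same-numbered mice correlated at -0.138, 0.0906, -0.0447 and -0.0499 and 2 of 8 mice correlated best with their own number. With that number as a replicate block there were 31 and 28 DEGs, 2 genes between Day 3 and Day 2, and 4 whose response differed by sex. Between Day 3 and Day 2 DESeq2 called 22 genes, and leaving out 1 mouse gave 0 to 1 (1 without Day 2 mouse 4). For the interaction of sex and day DESeq2 called 75 genes, and leaving out 1 mouse gave 0 to 6. Umod (0.18) was -0.37 with voom, -0.06 without Day 0 mouse 3, -0.13 without Day 0 mouse 4 and -0.54 without both, with a range of -0.13 to 0.52 over single mice left out. Trp53 (-0.04) was 0.06 without Day 0 mouse 1, 0.02 without Day 0 mouse 2 and 0.02 without Day 3 mouse 2, with a range of -0.16 to 0.06. Adgre1 (-0.36) was 0.05 with voom, 0.16 without Day 0 mouse 4 and 0.17 without both mice 3 and 4. Cd68 (0.16) was -0.01 without Day 0 mouse 3 and -0.04 without Day 3 mouse 1, with a range of -0.04 to 0.43. Of 2391 values of named genes under an alternative, 1934 kept direction and call, 431 lost the call and 14 gained it. The causes were not tested. Genes near 3 counts per library are at the limit of this depth.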
